A study of Capra hircus with 9 samples.

Results

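The miR-181 family was described across 9 small RNA libraries of the goat submandibular gland. Its members are the entries of the deposited count table named miR-181, whatever the letter, arm or ending, and 7 of the 2189 entries met that rule. They are miR-181-x, miR-181-y, chi-miR-181b-5p, chi-miR-181b-3p, chi-miR-181c-5p, chi-miR-181c-3p and chi-miR-181d. Of these, 6 passed the filter on low counts and were tested among 937 entries; chi-miR-181b-3p, with 32 reads over all libraries, did not pass. The glands came from healthy female Lubo goats, 9 separate animals housed alike, 3 of them aged 1 month, 3 aged 12 and 3 aged 24. Age is the only difference the labels give between the groups, and total RNA was taken from gland tissue, not from sorted cells. Goats are named here by the number in their sample title, which is 1, 2 and 3 for the 1-month group, 3, 4 and 5 for the 12-month group and 2, 3 and 5 for the 24-month group; goats with the same number at different ages are different animals.

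A mature miRNA guides Argonaute proteins to messenger RNAs, mainly through its seed, bases 2 to 8, and lowers the output of those messengers. Each miRNA hairpin can give a product from its 5p arm and another from its 3p arm, and usually 1 of them is kept in excess. miR-181 is known from lymphocytes: it is abundant in thymocytes, where miR-181a sets how strongly T cell receptor signals are read by restraining phosphatases, and it was described as a promoter of B cell development. It is also expressed in brain, muscle and endothelium. In mammals the family comes from hairpins in clusters, with miR-181a beside miR-181b and miR-181c beside miR-181d.

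The 5p members are shown first because they share the seed that defines the family. Sequences are given 5′ to 3′ as DNA letters from the deposited table, with the seed in capitals.

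miR-181-x: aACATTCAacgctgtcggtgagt

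chi-miR-181b-5p: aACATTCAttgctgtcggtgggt

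chi-miR-181d: aACATTCAttgttgtcggtgggt

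chi-miR-181c-5p: aACATTCAacctgtcggtgag

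All 4 carry the seed ACATTCA, and 0 of the other entries in the table do. miR-181-x has the sequence known in other mammals as miR-181a-5p. Counting positions from 1 at the 5′ end, chi-miR-181b-5p differs from chi-miR-181d by the substitution C12T alone, and from miR-181-x by T9A, T10C and G21A. chi-miR-181c-5p shares its first 10 bases with miR-181-x and lies 2 edits away from it. The 3p members are shown next, and they do not all share a seed.

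miR-181-y: aCCATCGAccgttgattgtacc

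chi-miR-181c-3p: aCCATCGAccgttgagtggacc

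chi-miR-181b-3p: cTCACTGAtcaatgaatgcaa

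miR-181-y, which has the sequence known elsewhere as miR-181a-3p, and chi-miR-181c-3p share the seed CCATCGA and their first 15 bases, and differ by G16T and G19T read from chi-miR-181c-3p to miR-181-y. The seed CCATCGA was also found in 0 non-members. chi-miR-181b-3p has the seed TCACTGA, which 1 non-member, miR-677-x, also carries, with 19 reads in all libraries together. No member was listed a second time under another name, and 0 non-members shared a run of 12 or more bases with any member. How reads that match several close members were assigned is not given in the sources used here, so values for chi-miR-181d beside chi-miR-181b-5p are uncertain to that degree. The RefSeq gene table for the goat assembly ARS1.2 names MIR181B, MIR181C and MIR181D, with MIR181C next to MIR181D, and MIR181B elsewhere, between LOC108637165 and LOC108637164.

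Libraries held 8288492 to 13277448 counts. At 1 month, goat 2 stood apart before any test: entries of a leukocyte list (miR-142, miR-150, miR-155, miR-223, miR-146 and miR-342) took 12.7% of its counts against 3.73% in goat 1 and 5.78% in goat 3. Its epithelial list (miR-200, miR-141, miR-429, miR-203, miR-205, miR-183, miR-96 and miR-182) took 0.875% against 5.82% and 3.97%, and its gland list (miR-148, miR-375, miR-7, miR-216 and miR-217) 1.41% against 8.55% and 6.50%. In the 6 older goats the leukocyte list took 0.477 to 0.712%, the epithelial list 10.3 to 11.9% and the gland list 14.2 to 17.9%. Values without goat 2 are therefore given beside the members' fold changes, the counts of calls in the lists and the ratios to the miR-181c and miR-181d members.

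The family as a whole held a far larger part of the miRNA pool at 1 month than later. All members together took 4.19%, 14.1% and 3.05% of the counts in 1-month goats 1, 2 and 3. The share was 0.524%, 0.538% and 0.618% in 12-month goats 3, 4 and 5, and 0.471%, 0.460% and 0.474% in 24-month goats 2, 3 and 5. Wilson 95% intervals of these shares reached at most 0.0187 percentage points to either side and cover counting error only. Those of 24-month goats 2 and 5 overlapped. The mean share went from 7.11 ± 6.08% (SD, n = 3) at 1 month to 0.560 ± 0.0508% at 12 months, a 12.7-fold difference of means, or 6.47-fold without goat 2. The lowest 1-month goat was above every older goat, and the exact two-sided permutation test gave p = 0.1, the smallest value 3 goats against 3 allow. At 24 months the share was 0.468 ± 0.00748%, below all 12-month goats (exact p = 0.1). This last order depended on the scaling: over totals scaled by TMM, a factor that evens out the bulk of entries, the shares of the older ages overlapped (0.580 ± 0.0812% and 0.504 ± 0.0261%, exact p = 0.2).

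**Figure D1:**
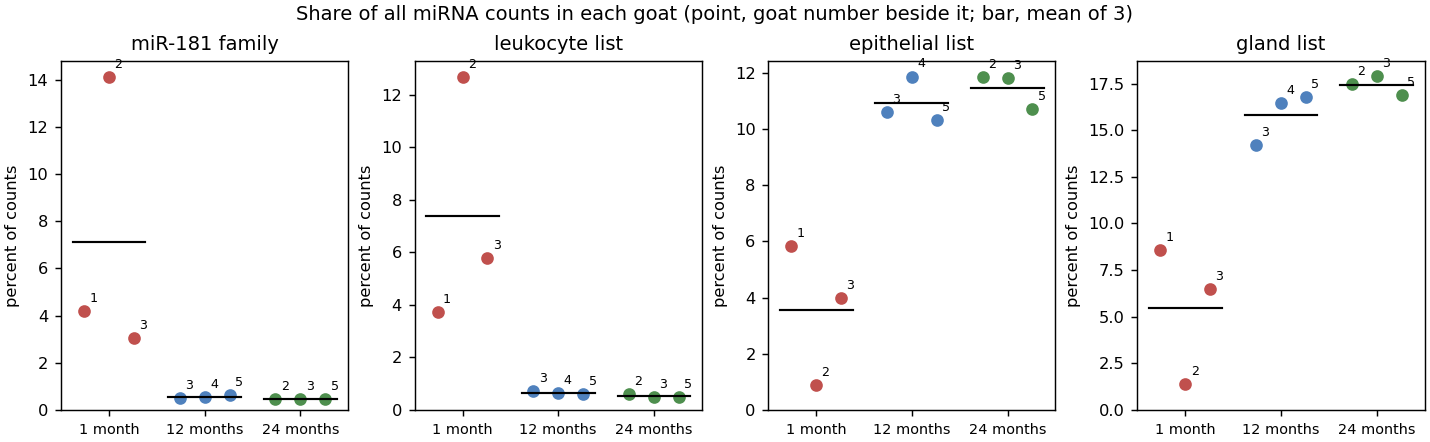
Percent of all miRNA counts (y axis, from 0) taken by the miR-181 family and by the leukocyte, epithelial and gland lists in each goat, by age; points are goats with their number, bars are means of 3. In 1-month goat 2 the family reached 14.1% and the leukocyte list 12.7%, while the epithelial list stood at 0.875%.

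miR-181-x, the major 5p product, made up most of the family at every age. Its levels, in CPM (counts relative to the TMM-scaled library total), were 32476, 138106 and 23152 in 1-month goats 1, 2 and 3. They were 4881, 4363 and 5808 in 12-month goats 3, 4 and 5, and 4013, 4045 and 4612 in 24-month goats 2, 3 and 5. Every 1-month goat lay above every older goat, and goat 2 lay far above goats 1 and 3. By count miR-181-x ranked 1 among all entries in that goat, 5 and 9 in 1-month goats 1 and 3, and 35 to 42 in the older goats. Between 1 and 12 months it fell by 3.69 on the log2 scale (SE 0.63, edgeR adjusted p = 0.00397), and without goat 2 the log2 fold change was −2.49 (SE 0.21, adjusted p = 0.0001). Against 1 month, the 24-month goats were lower by a log2 fold change of −3.93 (SE 0.64, edgeR adjusted p = 0.00249), or −2.74 (SE 0.22, adjusted p = 4.55e-05) without goat 2.

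miR-181-y, the 3p product with the miR-181a-3p sequence, also fell, from a much lower level. It stood at 769, 4125 and 497 CPM in 1-month goats 1, 2 and 3. It stood at 101, 142 and 152 CPM in 12-month goats 3, 4 and 5, and at 113, 107 and 105 CPM in 24-month goats 2, 3 and 5. The 1-month goats again did not overlap with either older age. The log2 fold change from 1 to 12 months was −3.77 (SE 0.73, edgeR adjusted p = 0.00594), and −2.29 (SE 0.27, adjusted p = 0.000442) without goat 2. From 1 to 24 months it was −4.05 (SE 0.74, adjusted p = 0.00444), and −2.57 (SE 0.27, adjusted p = 0.000254) without goat 2.

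chi-miR-181b-5p, which has the same seed as miR-181-x and so is thought to share most of its targets, stood at 1714, 5125 and 1072 CPM in 1-month goats 1, 2 and 3. In 12-month goats 3, 4 and 5 it stood at 253, 228 and 304 CPM, and in 24-month goats 2, 3 and 5 at 237, 258 and 281 CPM. As with miR-181-x, all 1-month goats were higher than all older goats. It fell by 3.33 on the log2 scale from 1 to 12 months (SE 0.55, edgeR adjusted p = 0.00332), with a log2 fold change of −2.43 (SE 0.25, adjusted p = 0.000267) without goat 2. From 1 to 24 months the log2 fold change was −3.35 (SE 0.55, adjusted p = 0.00274), and −2.45 (SE 0.25, adjusted p = 0.000254) without goat 2. chi-miR-181b-3p, its 3p partner, had 7, 15 and 3 reads in the 1-month goats, 0, 0 and 3 at 12 months and 0, 2 and 2 at 24 months. A count of 0 allowed up to 0.278 to 0.362 unscaled CPM in the 3 libraries concerned, so no change of this strand could be resolved at this depth.

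**Figure D2:**
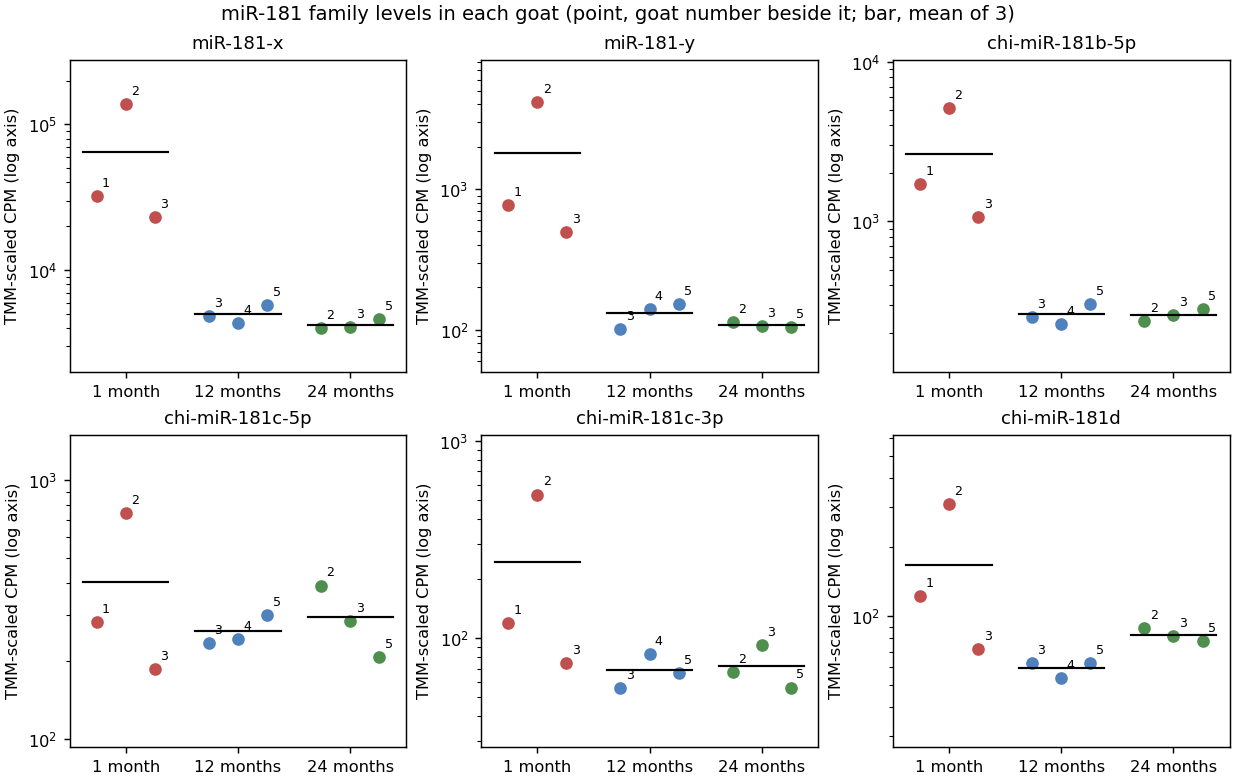
TMM-scaled CPM (y axes, log) of the 6 tested members in each goat by age; points are goats with their number and bars are means of 3. For miR-181-x, miR-181-y and chi-miR-181b-5p all 1-month goats lie above all older goats, while for chi-miR-181c-5p the ages overlap.

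The miR-181c and miR-181d members did not pass the test as fitted over the 937 entries; the settings under which some did are given after their values. chi-miR-181c-5p, again with the family seed, stood at 283, 743 and 186 CPM in 1-month goats 1, 2 and 3. It stood at 235, 243 and 302 CPM in 12-month goats 3, 4 and 5, and at 391, 285 and 207 CPM in 24-month goats 2, 3 and 5. Apart from 1-month goat 2, every goat of any age lay between 186 and 391 CPM. Its log2 fold change from 1 to 12 months was −0.64 (SE 0.50, edgeR adjusted p = 0.356), and without goat 2 it turned to 0.13 (SE 0.31, adjusted p = 0.78). From 1 to 24 months it was −0.46 (SE 0.49, adjusted p = 0.52), and 0.31 (SE 0.31, adjusted p = 0.47) without goat 2.

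chi-miR-181c-3p, the other strand of the same hairpin, stood at 118, 534 and 74.4 CPM in 1-month goats 1, 2 and 3. In 12-month goats 3, 4 and 5 it stood at 56.0, 83.1 and 66.5 CPM, and in 24-month goats 2, 3 and 5 at 67.6, 91.7 and 56.1 CPM. The ages overlapped, since 1-month goat 3 lay within the range of the older goats. Its log2 fold change was −1.82 from 1 to 12 months (SE 0.65, edgeR adjusted p = 0.0631) and −1.76 from 1 to 24 months (SE 0.65, adjusted p = 0.0612), and neither passed. Without goat 2 the values were −0.51 (SE 0.32, adjusted p = 0.265) and −0.45 (SE 0.32, adjusted p = 0.316).

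chi-miR-181d, from the hairpin next to miR-181c, stood at 123, 309 and 72.2 CPM in 1-month goats 1, 2 and 3. In 12-month goats 3, 4 and 5 it stood at 62.3, 53.8 and 62.2 CPM, and in 24-month goats 2, 3 and 5 at 88.9, 81.9 and 78.1 CPM. All 12-month goats were lower than all 1-month goats, and all 24-month goats were higher than all 12-month goats. The log2 fold change from 1 to 12 months was −1.50 (SE 0.49, edgeR adjusted p = 0.0551), and −0.73 (SE 0.27, adjusted p = 0.0823) without goat 2. From 1 to 24 months it was −1.02 (SE 0.49, adjusted p = 0.135), and −0.25 (SE 0.28, adjusted p = 0.506) without goat 2.

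**Figure D3:**
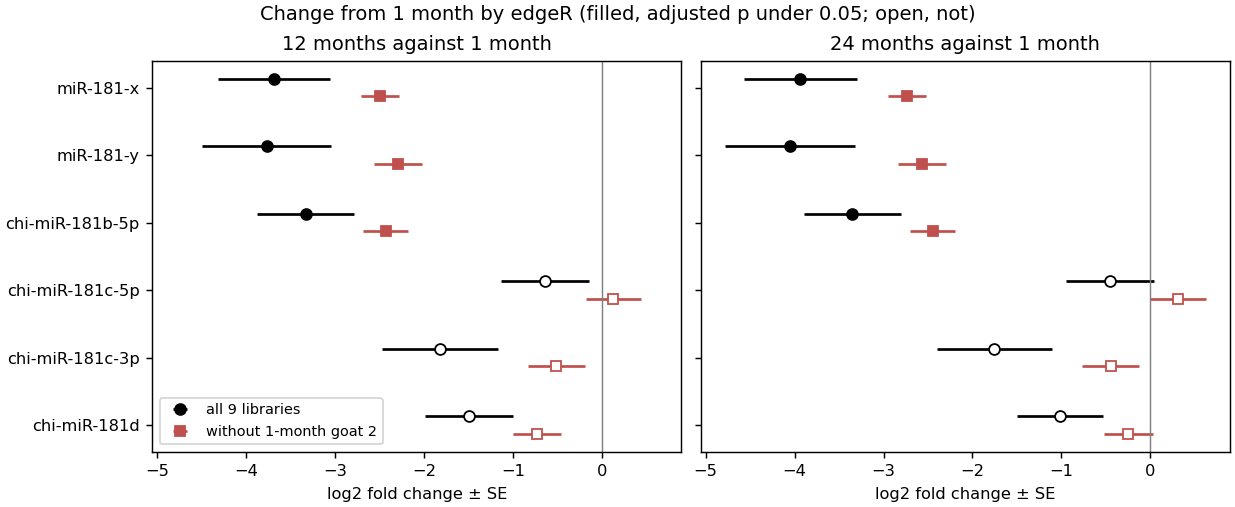
log2 fold change with its SE (x axes) of the 6 tested members from 1 to 12 and from 1 to 24 months by edgeR, with all 9 libraries (circles) and without 1-month goat 2 (squares); filled symbols have an adjusted p under 0.05. miR-181-x, miR-181-y and chi-miR-181b-5p stay at −2.29 or below in every fit shown, and the miR-181c and miR-181d members are open symbols throughout.

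Counted together, 3 of the 6 tested members were called lower at 12 months than at 1 month and 0 higher, where 13.2% of all 937 entries were called lower. Their median log2 fold change was −2.58, beside −0.02 for all entries tested. Without goat 2 the same 3 were called, beside 13.9% of 967 entries, and the medians were −1.51 and 0.07. For 4 of the 6 every 12-month goat lay below every 1-month goat, as it did for 22.2% of all entries. At 24 months against 1 month 3 of the 6 were called lower and 0 higher, beside 17.5% of all entries, with a median of −2.55 beside −0.06. For 3 of the 6 every 24-month goat lay below every 1-month goat, beside 25.8% of all entries. A test for any difference between the 3 ages called the same 3 members, chi-miR-181b-5p and miR-181-x at an edgeR adjusted p of 0.00136 each and miR-181-y at 0.00263, where 20.5% of all entries were called. These comparisons share the 1-month goats and are no separate evidence. chi-miR-181c-3p and chi-miR-181d lay near the threshold: from 1 to 12 months both passed with library size alone (adjusted p = 0.0495 and 0.0255), with DESeq2 (0.0155 and 0.0125), with no filter (0.0013 and 0.0105) and with equal sequences merged (0.0396 and 0.0254). Both also passed when 1-month goat 3 (0.0216 and 0.0155), 24-month goat 2 (0.0481 and 0.0301) or 24-month goat 5 (0.0484 and 0.0342) was left out, chi-miR-181c-3p without 1-month goat 1 (0.0447) and chi-miR-181d without 24-month goat 3 (0.0377), with DESeq2 size factors (0.0482) and at 10 CPM or more in some age (0.0469). Between 1 and 24 months chi-miR-181c-3p passed with library size alone (0.0395), no filter (0.00138), DESeq2 (0.0187) and equal sequences merged (0.0495), and without 1-month goat 1 (0.0435) or goat 3 (0.0225). chi-miR-181d passed there without 1-month goat 3 (0.0468). With library size alone the median of all entries was −0.20 in place of −0.02, and 85.6% of the calls were lower, against 68.9% with TMM.

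Between 12 and 24 months 0 of the 6 members were called by edgeR, and 0% of all entries were called in either direction. At an unadjusted p under 0.05 there were 0 members and 40 entries, and DESeq2 and limma voom also called 0 members and 0 entries. miR-181-x had a log2 fold change of −0.25 (SE 0.57), miR-181-y of −0.28 (SE 0.65), chi-miR-181b-5p of −0.02 (SE 0.50), chi-miR-181c-5p of 0.18 (SE 0.49) and chi-miR-181c-3p of 0.07 (SE 0.63). The adjusted p was 0.998 for each of these and for chi-miR-181d, whose ages did not overlap at 0.48 (SE 0.48). These SEs draw on the spread of all 9 libraries, 1-month goat 2 included. Without goat 2 the log2 fold changes were −0.25 (SE 0.19) for miR-181-x, −0.28 (SE 0.24) for miR-181-y and −0.01 (SE 0.23) for chi-miR-181b-5p. For chi-miR-181c-5p, chi-miR-181c-3p and chi-miR-181d they were 0.18 (SE 0.28), 0.07 (SE 0.29) and 0.48 (SE 0.25). The edgeR adjusted p then ran from 0.844 to 0.989. An adjusted p of this size does not show that the older ages are alike.

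The contrast between miR-181-x, miR-181-y and chi-miR-181b-5p and the miR-181c and miR-181d members can be read inside each library, where scaling has no part. Over chi-miR-181c-5p, miR-181-x was 115, 186 and 124.3 times as abundant in 1-month goats 1, 2 and 3. The ratio was 20.8, 17.9 and 19.3 in the 12-month goats and 10.3, 14.2 and 22.2 in the 24-month goats. Goat 2 was the highest in this ratio too, and every 1-month goat lay above every older goat. The mean ratio went from 142 ± 38.6 to 19.3 ± 1.43 between 1 and 12 months (exact two-sided permutation p = 0.1), and was 119.6 at 1 month without goat 2.

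The 3p strands gave the same order. miR-181-y over chi-miR-181c-3p was 6.49, 7.72 and 6.68 in 1-month goats 1, 2 and 3, and 1.80, 1.70 and 2.28 in 12-month goats 3, 4 and 5. In 24-month goats 2, 3 and 5 it was 1.67, 1.17 and 1.87. The means were 6.96 ± 0.663, 1.93 ± 0.312 and 1.57 ± 0.361, and the 1-month goats overlapped with neither older age (exact p = 0.1 for each). Without goat 2 the 1-month mean was 6.58.

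chi-miR-181b-5p over chi-miR-181d, which differ by the single substitution given above, was 14.0, 16.6 and 14.9 in 1-month goats 1, 2 and 3. In 12-month goats 3, 4 and 5 it was 4.06, 4.25 and 4.88, and in 24-month goats 2, 3 and 5 it was 2.67, 3.15 and 3.60. Here the 3 ages were ordered without overlap, with means of 15.1 ± 1.33, 4.39 ± 0.429 and 3.14 ± 0.469 (exact p = 0.1 for each pair of ages). Without goat 2 the 1-month mean was 14.4.

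Among miR-181-x, miR-181-y and chi-miR-181b-5p the ratios lay closer together over the ages. miR-181-x over chi-miR-181b-5p was 18.9, 26.9 and 21.6 in the 1-month goats, 19.3, 19.1 and 19.1 in the 12-month goats and 16.9, 15.7 and 16.4 in the 24-month goats. The 1-month and 12-month goats overlapped (exact p = 0.4), and the 24-month goats lay below both (exact p = 0.1 each). miR-181-x over the 3p member miR-181-y was 42.2, 33.5 and 46.6 in the 1-month goats, 48.5, 30.8 and 38.2 in the 12-month goats and 35.5, 37.8 and 44.0 in the 24-month goats. The names do not give the hairpin of either entry, so this need not be an arm ratio of a single hairpin. The ages overlapped throughout, and the exact p was 0.8 for each older age against the youngest and 1 between the older ages.

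**Figure D4:**
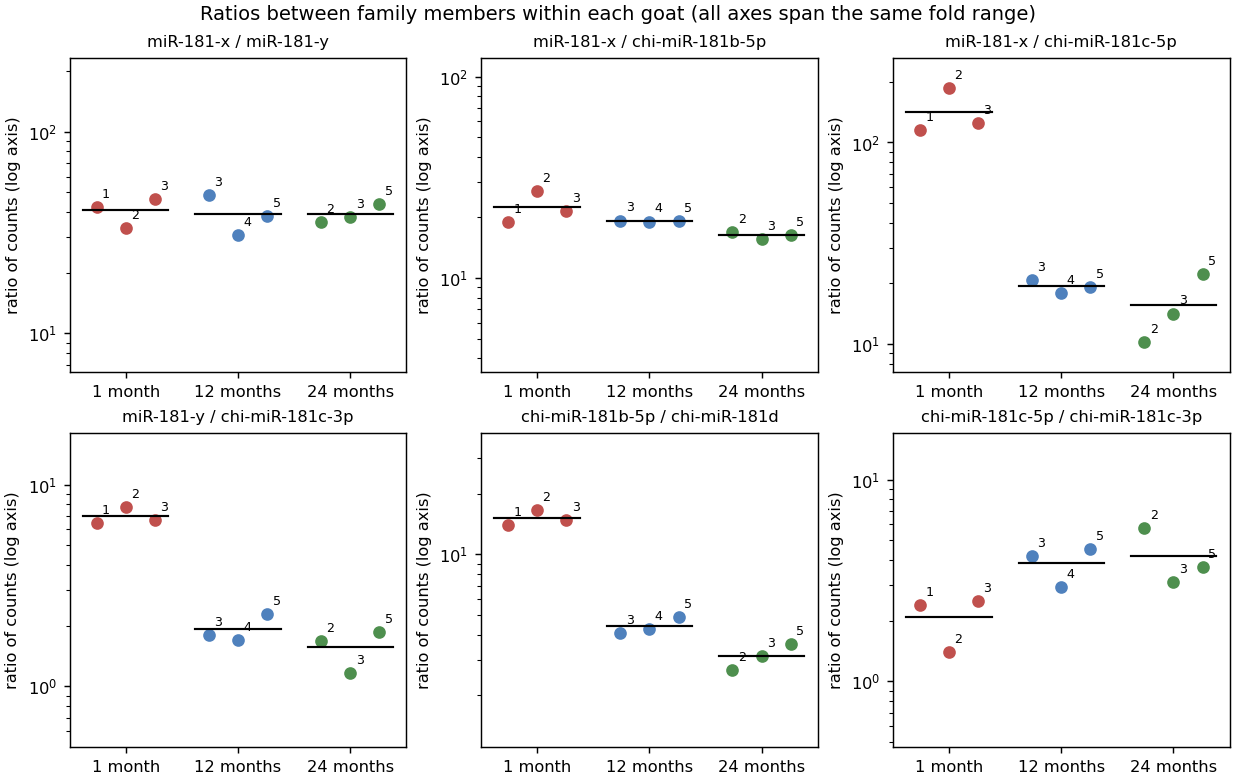
Ratios of read counts (y axes, log, all with the same fold span) between pairs of family members within each goat, by age; points are goats with their number and bars are means of 3. The ratios of miR-181-x to chi-miR-181c-5p, of miR-181-y to chi-miR-181c-3p and of chi-miR-181b-5p to chi-miR-181d are higher in every 1-month goat than in any older goat, while miR-181-x over miR-181-y overlaps at all ages.

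The arms of miR-181c can be compared in the same way. chi-miR-181c-5p over chi-miR-181c-3p was 2.39, 1.39 and 2.50 in the 1-month goats, 4.19, 2.93 and 4.53 in the 12-month goats and 5.78, 3.11 and 3.70 in the 24-month goats. The 5p excess was lower in every 1-month goat than in any older goat (exact p = 0.1 for each older age), and the older ages overlapped (exact p = 0.8). The 1-month mean was 2.09 ± 0.611, or 2.44 without goat 2, which had the lowest ratio. Over the whole family the summed 5p members exceeded the summed 3p members by 5.22 ± 0.241, 4.82 ± 0.342 and 4.76 ± 0.231 on the log2 scale at 1, 12 and 24 months, with overlap between all ages (exact p = 0.2 for each older age against the youngest and 0.8 between the older ages). With lettered goat-named members only, which leaves out miR-181-x and miR-181-y, the values were 3.95 ± 0.362, 3.09 ± 0.374 and 3.17 ± 0.351. There every 1-month goat lay above every older goat (exact p = 0.1 for each older age), and the older ages overlapped (exact p = 0.5).

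As parts of the family, miR-181-x made up 91.5 to 92.7% of its counts in the youngest goats, 85.3 to 87.4% in the 12-month and 81.7 to 86.4% in the 24-month goats. The miR-181c strands together made up 1.13%, 0.857% and 1.04% in 1-month goats 1, 2 and 3. They made up 5.20 to 6.38% in the 12-month and 4.93 to 9.33% in the 24-month goats, so that all older goats exceeded all 1-month goats (exact p = 0.1 for each). chi-miR-181b-5p made up 4.30 ± 0.705%, 4.67 ± 0.0169% and 5.32 ± 0.271% of the 5p counts at 1, 12 and 24 months. The first of these steps overlapped (exact p = 0.5) and the second did not (exact p = 0.1). Within the lettered goat-named 5p members alone, which leaves out miR-181-x, chi-miR-181b-5p was 81.5 ± 1.30% at 1 month and 45.0 ± 1.31% at 12 months, where the rest of the denominator is chi-miR-181c-5p and chi-miR-181d.

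Of the comparisons of shares and ratios made with the exact test, 33 were adjusted together, and the smallest p of 0.1, reached by 20 of them, became 0.165 after Benjamini-Hochberg adjustment. The share over TMM-scaled totals was an alternative outside these 33. None could have passed a threshold of 0.05 with 3 goats an age. The ratios between single members and the miR-181c share were picked after their values were seen.

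The leukocyte list fell over the same ages as the 3 called members. Of the leukocyte list, 12 of 16 tested entries were called lower at 12 months than at 1 month and 0 higher, with a median log2 fold change of −3.52, beside 13.2% of all entries called lower and a median of −0.02. Without goat 2 it was 11 of 16 beside 13.9%, with a median of −2.68. At 24 months against 1 month 14 of 16 were called lower and 0 higher, beside 17.5% of all entries lower. Without goat 2 that was 11 of 16, beside 14.9%. The list's share ranged from 3.73 to 12.7% in the youngest goats, 0.604 to 0.712% in the 12-month and 0.477 to 0.617% in the 24-month goats. Of its 22 entries 17 to 22 were detected in the 1-month libraries and 15 to 17 in the older ones, and its leading marker miR-142-x, made in all blood-forming cells, was present in all 9, at 884 CPM or more. The part of blood cells in the fall of miR-181-x was not tested, and in whole tissue fewer cells of a type and less RNA per cell cannot be told apart.

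The most abundant family member can be set beside that marker within each library. The ratio of miR-181-x to miR-142-x was 1.71, 1.34 and 0.742 in 1-month goats 1, 2 and 3. It was 4.04, 3.77 and 4.77 in the 12-month goats and 3.38, 4.57 and 4.22 in the 24-month goats. Every older goat had a higher ratio than every 1-month goat, with a difference in mean log2 ratio of 1.81 between 1 and 12 months and 1.75 between 1 and 24 months (exact p = 0.1 for each). The epithelial list went the other way, with 5 of 22 tested entries called higher and 0 lower from 1 to 12 months, where 5.98% of all entries were called higher. Without goat 2 it was 14 of 22 higher and 0 lower, beside 8.69% of all entries. The gland list had 3 of 11 higher and 1 lower from 1 to 12 months, beside 5.98% of all entries higher and 13.2% lower. Without goat 2 it had 5 higher and 2 lower, beside 8.69% and 13.9%. The endothelial list (miR-126), of a cell type that also makes miR-181, had 0 of 4 called in either direction between 1 and 12 months and took 0.441 to 1.45% of counts in the youngest and 0.781 to 0.939% in the 12-month goats. By 24 months 1 of 4 was called higher than at 1 month and 0 lower, beside 8.75% of all entries higher. Without goat 2 that was 0 of 4, beside 11.5% of all entries higher. The endothelial share was 0.693 to 0.748% in the 24-month goats. Of the neural list (miR-9, miR-124 and miR-137) 0 of 5 were called from 1 to 12 months, and of the red cell list (miR-144, miR-451 and miR-486) 0 of 7, with the same counts without goat 2. At 24 months against 1 month 2 of 7 red cell entries were called lower and 0 higher, with and without goat 2. Over all entries 17.5% were called lower there, and 14.9% without goat 2. The red cell share was 0.201 to 0.403% in the 1-month and 0.101 to 0.116% in the 24-month goats. The muscle list (miR-1, miR-133, miR-206 and miR-499) had 2 of 9 higher and 0 lower from 1 to 12 months, beside 5.98% of all entries higher. It had 2 of 11 higher without goat 2, beside 8.69%. Its share of counts was 0.247% in 12-month goat 4, against 0.0268% and 0.0229% in 12-month goats 3 and 5. It was 0.0150 to 0.0606% in the 1-month and 0.0226 to 0.0428% in the 24-month goats. The mesenchymal list (miR-143, miR-145, miR-199 and miR-214) had 1 of 19 higher and 0 lower from 1 to 12 months, beside 5.98% of all entries higher and 13.2% lower. Without goat 2 it had 3 higher and 5 lower, beside 8.69% and 13.9%. At 24 months against 1 month it had 1 higher and 0 lower, beside 8.75% of all entries higher and 17.5% lower. Without goat 2 it had 4 higher and 8 lower there, beside 11.5% of all entries higher and 14.9% lower. Its share of counts was 10.7%, 1.66% and 13.6% in 1-month goats 1, 2 and 3 and 6.51 to 9.04% in the older goats. These lists come from background knowledge, and their part in the results on the family was not tested.

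A list of miRNAs known beside miR-181 in lymphocyte development (miR-150, miR-155, miR-146, miR-223, miR-128, miR-29, miR-15 and miR-16, with miR-17, miR-18, miR-19, miR-20 and miR-92, of which miR-150, miR-155, miR-146 and miR-223 are also in the leukocyte list) had 52 tested entries. From 1 to 12 months 32 of them were called lower and 5 higher, with a median of −2.24, beside 13.2% of all entries lower and 5.98% higher. Without goat 2, 30 were lower and 5 higher, with a median of −1.41, beside 13.9% and 8.69% of all entries. By 24 months 34 were lower and 5 higher, beside 17.5% and 8.75%. Without goat 2, 28 were lower and 5 higher by then, beside 14.9% and 11.5%. Between 12 and 24 months 0 were called. The list was chosen with earlier results of these data known, so these calls are a description and no separate evidence. Its 2 most abundant entries were chi-miR-16a-5p, a brake of the cell cycle, and chi-miR-128-3p, which is known in neurons and lymphoid precursors. chi-miR-128-3p fell by 5.02 on the log2 scale from 1 to 12 months (SE 0.85, edgeR adjusted p = 0.00385), and without goat 2 its log2 fold change was −3.38 (SE 0.37, adjusted p = 0.000322). chi-miR-16a-5p did not pass, at −1.54 (SE 0.55, adjusted p = 0.0631), or −0.59 (SE 0.30, adjusted p = 0.181) without goat 2.

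The entries whose course over the 9 libraries was most like that of each main member were found by the root mean square difference of log2 CPM, centred on each entry's own mean, among 497 known entries of at least 10 CPM in some age. For miR-181-x they were chi-miR-15b-5p (0.24), chi-miR-363-3p (0.28), chi-miR-15b-3p (0.30) and chi-miR-17-5p (0.34), where the median over the 497 was 1.84. For miR-181-y they were chi-miR-15b-5p (0.31), chi-miR-15b-3p (0.31), chi-miR-363-3p (0.32) and chi-miR-18b-5p (0.38). For chi-miR-181b-5p they were chi-miR-363-3p (0.21), chi-miR-17-5p (0.24), chi-miR-20a-5p (0.27) and chi-miR-16b-5p (0.28). All of these were called lower from 1 to 12 months, where 13.2% of all 937 entries were. Their log2 fold changes ran from −4.03 to −2.81 (edgeR adjusted p of 0.0025 to 0.0137), and without goat 2 from −2.82 to −1.95. Because they were picked for their likeness to members called lower, these calls follow from the choice and are no separate evidence. For chi-miR-181c-3p the nearest were chi-miR-342-5p (0.26), chi-miR-19a (0.31), chi-miR-191-3p (0.32) and chi-miR-15a-5p (0.32), against a median of 1.23. From 1 to 12 months chi-miR-342-5p, chi-miR-19a and chi-miR-15a-5p were called lower (edgeR adjusted p = 0.0419, 0.0319 and 0.0266) and chi-miR-191-3p was not (0.0571). Without goat 2 chi-miR-19a (0.0496) and chi-miR-15a-5p (0.0160) passed, and chi-miR-342-5p (0.0835) and chi-miR-191-3p (0.0931) did not.

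Between the members themselves, miR-181-x lay 0.21 from miR-181-y and 0.22 from chi-miR-181b-5p by this measure, but 1.03 from chi-miR-181c-3p, 1.17 from chi-miR-181d and 1.47 from chi-miR-181c-5p. chi-miR-181d in turn lay 0.40 from each of the miR-181c strands. The sequence distances do not run in the same order, since chi-miR-181d differs by 1 base from chi-miR-181b-5p, from which it lay 0.99, and chi-miR-181c-5p by 2 edits from miR-181-x. These distances rest on the same 9 libraries and scaling, with goat 2 of 1 month among them, and are a description.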

How the data were processed

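Per the file headers, the authors deposited unscaled read counts per mature miRNA entry for 9 libraries; per the submitters' processing notes FastQC and Bowtie were used, without versions. No source used here names the genome build, the miRNA database or the counting rules. Per the labels, total RNA was taken with TRIzol and libraries followed an Illumina miRNA protocol, 1 goat each, 3 per age. Entries were kept by edgeR's filter (minimum count 10, minimum total 15), leaving 937 with at least 99.9% of every library. They were fitted together with edgeR 4.0.16 (R 4.3.3) by its robust quasi-likelihood test after TMM scaling, which left 6 residual degrees of freedom and a coefficient of variation between goats of 0.534, with Benjamini-Hochberg adjustment over all 937 and a threshold of 0.05. SE is the log2 fold change over the root of F. Shares and ratios were compared by exact two-sided permutation in scipy 1.17.1. DESeq2 1.42.0 and limma 3.58.1 were alternatives. The fits were also run on simulated counts drawn independently for each entry, with no outlying library. That check does not cover a library like 1-month goat 2. Sequences come from the deposited table; RefSeq's table was used for names and neighbours of genes only. Members, lists and the naming rule (all members, their 4 nearest entries, seed sharers and 2 leading entries of a list) were chosen with earlier results of these data known. Libraries totalled 8288492 to 13277448 counts. The edgeR p-values set a difference between ages against the spread between goats, estimated from all 9 libraries with 3 goats an age. The exact p-values rest on relabelling the goats of the 2 ages compared.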

Additional observations from a re-analysis of the deposited data

How the results depend on the processing

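miR-181-x, miR-181-y and chi-miR-181b-5p stayed negative from 1 month to both older ages under all alternatives that tested them, and past the threshold under all of these except the replicate block from 1 to 12 months. The number of members called from 1 to 12 months (3) was 5 with library size alone, no filter, DESeq2 or equal sequences merged, 1 with goat-named entries only (which drops miR-181-x and miR-181-y) and 0 with the replicate block; leaving out a library gave 3 to 5. From 1 to 24 months (3) it was 4 with library size alone, no filter, DESeq2 or equal sequences merged, 1 with goat-named entries only and 3 to 5 on leaving out a library. Over all entries the calls ran from 4 to 285 (180), from 71 to 358 (246) and, between 12 and 24 months, from 0 to 5 (0). Goats with the same number are different animals, so the titles' numbers give no pairing, and same-numbered libraries had deviations correlated at −0.198 to 0.150. In the replicate block, 1-month goat 1 and 12-month goat 4 have numbers found at a single age and add nothing to the contrasts. Only number 3 occurs at both 1 and 12 months. With this block miR-181-x stood at −3.18 (edgeR adjusted p = 0.109), miR-181-y at −3.21 (0.142) and chi-miR-181b-5p at −2.91 (0.136) from 1 to 12 months. From 1 to 24 months 3 members passed.

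Directions of edgeR fold changes that turned all belonged to values that did not pass. The exact tests of shares and ratios could not pass at any value, so this does not apply to them. chi-miR-181c-5p from 1 to 12 months was 0.068 with the replicate block and −1.09 to 0.13 on leaving out a library, and from 1 to 24 months −0.82 to 0.31. Between 12 and 24 months chi-miR-181b-5p was 0.0368 with DESeq2 size factors and with DESeq2, 0.00795 with upper quartile, 0.00488 at 10 CPM or more, 0.0104 with only the libraries of both ages, 0.12 with sequences merged, 0.0540 with goat-named entries and −0.10 to 0.35 on leaving out a library. chi-miR-181c-3p was −0.00126 with library size alone and −0.0493 with the block, chi-miR-181c-5p −0.28 with the block, and miR-181-x and miR-181-y ran from −0.33 to 0.11 and −0.28 to 0.0888 on leaving out a library. The 5p over 3p log2 ratio between 12 and 24 months was 0.0759 with lettered members and −0.245 to 0.0917 on leaving out a library, and that of miR-181-x over miR-142-x −0.145 to 0.0726. The share of chi-miR-181b-5p in 5p counts turned with lettered members only, to −36.5, −3.66 and −40.2 percentage points for 12 against 1, 24 against 12 and 24 against 1 month. That setting takes miR-181-x out of the denominator. With all 5p members the differences were 0.377, 0.648 and 1.02 points. Those of 24 months were without overlap, at the smallest p the exact permutation test allows (0.1). Depth limits chi-miR-181b-3p, with 32 reads in all.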
